A study of Mus musculus with 80 samples.

Results

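Ethinyl estradiol (EE2) at 1 ppm in the feed for 7 days was compared with feed alone in the liver of male B6C3F1 mice. The comparison holds 10 of the series' 80 arrays. 4 were from mice given 1 ppm EE2, which is the lowest of the EE2 doses, and 6 were from mice given the control feed at 0 ppm for the same 7 days. Arrays were chosen by their titles alone, so no measured value entered the choice. The series as a whole tested EE2, prednisone and androstenedione in 19 groups, and it asked how these steroids alter gene expression in the male liver. The labels used here give no age and no time of day of collection. They also do not say that the arrays of a group came from separate mice. The p-values therefore measure change only against the spread of arrays within groups, taken over all 80 arrays of the 19 groups. That spread may be technical. Each array reported 1 intensity and 1 detection p-value for each of 18138 entries, nearly all of them named by gene. A gene was tested where its detection p was under 0.05 on at least 4 of the 80 arrays, which left 11352 genes.

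EE2 is a synthetic form of estradiol that is used in oral contraceptives and is active by mouth. Estrogens enter cells and bind estrogen receptors, which act on genes as ligand-dependent transcription factors, and hepatocytes hold mainly the alpha receptor. In rodents many liver genes differ between the sexes. The male pattern follows the pulsed release of growth hormone, which acts through STAT5, and the female pattern follows its near-continuous release. Estrogens are known to shift the male rodent liver toward the female pattern and to disturb bile acid handling.

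The liver label was checked against hepatocyte markers. Transferrin (Trf) lay at 13978 to 17633 on the 10 arrays and transthyretin (Ttr) at 9920 to 16710, whereas the albumin (Alb) entry lay at 100.4 to 289 on EE2 arrays and 98.8 to 232 on controls, near background. The EE2 arrays detected 8269 to 8877 entries and the controls 8143 to 8331. Array medians lay between 105.7 and 106.4 over the 80 arrays, and the lowest intensity was 85.9, so values of about 100 are background. Signal above background, and not a read depth, limits what these arrays can show. One control array, replicate 2, was unlike the rest: the SD of its log2 differences from the other controls over the tested genes was 0.301 to 0.395, against 0.14 to 0.203 among the other 5. Control replicates 2 and 6 share a number in their sample names, whose meaning is not stated, so they may not be independent. Among EE2 arrays, replicates 2 and 3 differed most, with an SD of 0.535, against 0.288 for replicates 2 and 4. Results that rest on one of these arrays are given with and without it. Below, values for EE2 arrays run from replicate 1 to replicate 4, control values are the lowest and highest with the median, and ± after a log2 change is its standard error.

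Of the 11352 genes tested, 1515 passed the test at an adjusted p under 0.05, which is 13.3% of them. 714 genes rose (6.29%) and 801 fell (7.06%). Most changes were small. 230 of the rises and 256 of the falls were at least 1.5-fold, 83 and 93 were at least 2-fold, and 19 and 17 at least 4-fold. The median log2 change over all tested genes was 0.00. In 936 genes (8.25%) the 4 EE2 arrays did not overlap the 6 controls. The call count fell to 899 without EE2 replicate 1 and to 641 when the spread was estimated from these 10 arrays alone. The number in each array's title was taken as that of its chip, which the titles do not state. Read so, arrays were run on chips of 8, and 2 chips held an array of each group. In both of those chips, which hold EE2 replicates 1 and 4, 97.6% of the called genes differed in the called direction, but these arrays took part in the calls, so the share is only a description. With the chip as a block 1352 genes passed.

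**Figure D1:**
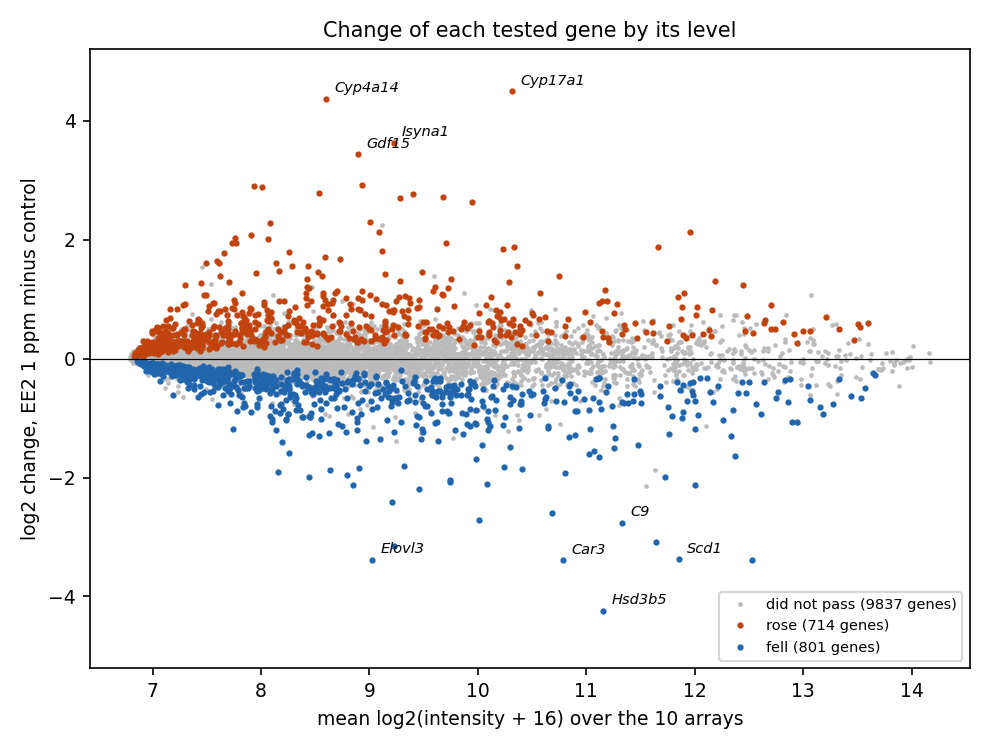
Log2 change at EE2 1 ppm minus control (vertical) against the mean log2(intensity + 16) over the 10 arrays (horizontal), with 1 point per tested gene. 714 genes that rose are orange, 801 that fell are blue and the rest are grey. The most extreme of the labelled genes are Cyp17a1 at 4.50 and Hsd3b5 at -4.24.

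The highest rise was that of Cyp17a1, which encodes the 17-alpha-hydroxylase and 17,20-lyase of androgen synthesis. Its intensity was 10200, 5948, 6526 and 11762 on the EE2 arrays and 193 to 491 (median 377) on the controls. All 4 EE2 arrays lay far above every control, and the log2 change was 4.50 ± 0.36 (adjusted p = 4.01e-15), or 22.6-fold. Cyp4a14, a fatty acid omega-hydroxylase, was not detected on any control (96.4 to 103) and read 9675, 8438, 129 and 2748 on the EE2 arrays. The rise was at least 22.8-fold (adjusted p = 1.62e-05), with replicate 3 barely above background. Gdf15, a secreted member of the TGF-beta family that cells release under stress, read 2319, 2016, 2175 and 1492 against 129.9 to 184 (median 176). Its EE2 arrays were close together and did not overlap the controls, with a log2 change of 3.44 ± 0.28 (adjusted p = 4.01e-15).

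Ehhadh, the bifunctional enzyme of peroxisomal beta-oxidation, read 1645, 1629, 831 and 3074 on EE2 arrays and 138 to 249 (median 217) on controls (log2 change 2.91 ± 0.35, adjusted p = 5.36e-09). Corin, a serine protease that processes atrial natriuretic peptide, read 1401, 725, 1476 and 1224 against 125 to 206 (median 153) (log2 change 2.79 ± 0.19, adjusted p = 1.04e-17). Abcc3, which exports conjugated bile acids and glucuronides into blood, read 2316, 2030, 1555 and 2785 against 194 to 399.9 (median 314) (log2 change 2.77 ± 0.27, adjusted p = 8.67e-12). In each of these genes the lowest EE2 array was well above the highest control. Mfsd2a, a transporter of lysophosphatidylcholine, rose by 2.70 ± 0.48 on the log2 scale, and Alas1, the rate-limiting enzyme of heme synthesis in hepatocytes, by 2.12 ± 0.47. Mmd2, Gpcpd1 (a glycerophosphocholine phosphodiesterase), Col16a1 (a collagen chain), Cyp2c39 (a cytochrome P450) and Slco2a1 (a prostaglandin transporter) rose by 2.64, 2.29, 2.28, 2.08 and 1.88. The deubiquitinase Usp2, not detected on any control, rose at least 4.46-fold.

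Krt79, a keratin, showed how far single arrays could differ. It read 2187, 101, 2246 and 755 on the EE2 arrays and 88.9 to 96.9 on the controls, none of which detected it. Replicate 2 did not detect it either, and the other 3 lay well above every control. The rise was at least 7.70-fold over all 4 arrays (adjusted p = 9.67e-06, and 1.08e-09 without replicate 2).

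Among falls, Hsd3b5 was the largest. It encodes a 3-keto-steroid reductase that is abundant in the liver of male mice. Its intensity was 401, 185, 1428 and 178 on the EE2 arrays against 6668 to 8029 (median 7310) on the controls. Every EE2 array was far below the controls, with replicate 3 the least reduced, and the log2 change was -4.24 ± 0.25 (adjusted p = 2.62e-21), or 18.9-fold lower. Car3, carbonic anhydrase 3, read 114, 1521, 415 and 384 against 2504 to 7025 (median 4771) (log2 change -3.39 ± 0.55, adjusted p = 8.33e-06). Elovl3, an elongase of very long-chain fatty acids, read 97.2, 104, 156 and 96.8 against 907 to 1728 (median 1447) (log2 change -3.38 ± 0.32, adjusted p = 1.59e-12) and was detected on 1 of 4 EE2 arrays, so its fall may be understated. Scd1, the stearoyl-CoA desaturase that makes monounsaturated fatty acids, read 539, 174, 2057 and 3106 against 7609 to 11762 (median 9423) (log2 change -3.37 ± 0.68, adjusted p = 0.000264). By the rule that chose them, neither Car3 nor Scd1 had an EE2 array within the control range. Their EE2 arrays differed widely among themselves.

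Moxd1, a copper monooxygenase, read 111, 101, 387 and 97.9 against 516 to 2947 (median 1407), with a log2 change of -3.15 ± 0.62 (adjusted p = 0.000218). Cyp4a12a, an arachidonic acid omega-hydroxylase of the male mouse liver, read 932, 833, 2340 and 313 against 6279 to 9000 (median 7535) (log2 change -3.08 ± 0.35, adjusted p = 1.76e-09). It is nearly identical to Cyp4a12b, and their signals may not be fully separate. C9, the pore-forming component of complement, read 264, 449.6, 4036 and 818 against 4913 to 5996 (median 5555) (log2 change -2.76 ± 0.50, adjusted p = 6.43e-05), and replicate 3 was much closer to the controls than the other EE2 arrays. The remaining large falls were those of Alas2 (-2.72), the erythroid enzyme of heme synthesis, Cyp2d40 (-2.60), the acute-phase gene Saa1 (-2.41), Serpina4-ps1 (-2.12), the aldehyde oxidase Aox3 (-2.12), the axonemal dynein gene Dnaic1 (-1.99), Nat8f1 (-1.92) and the ribonuclease Rnase2a (-1.90). These 30 genes were chosen as called and without overlap, so the count that follows is a description. 29 of them passed the test in each of the 10 fits that left out 1 array. The exception was Saa1, with an adjusted p of 0.0798, 0.0687 and 0.0659 without EE2 replicates 1, 2 and 4.

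**Figure D2:**
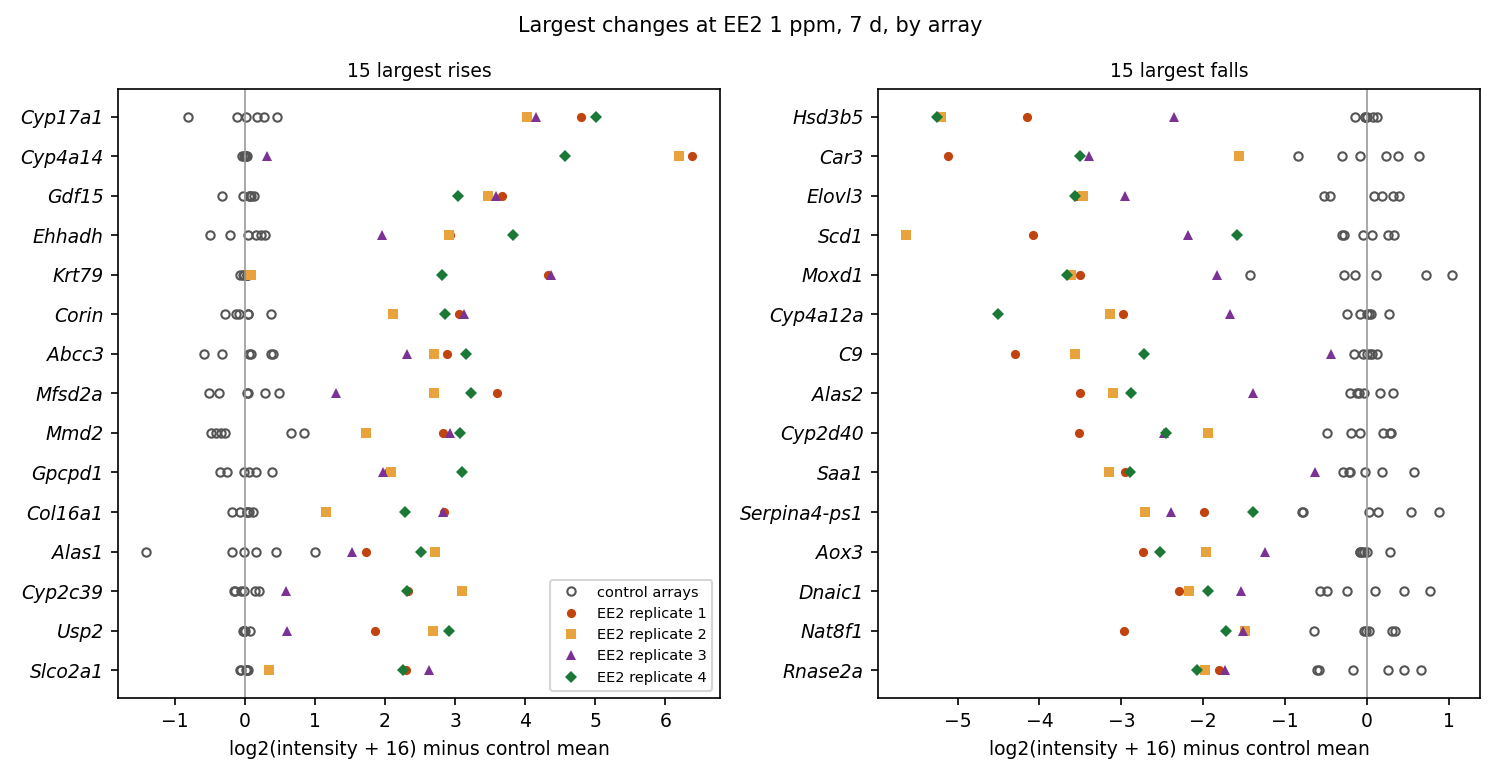
Log2(intensity + 16) minus the control mean (horizontal) for the 15 largest rises (left) and the 15 largest falls (right) whose EE2 arrays did not overlap the controls, with 1 point per array. Filled symbols are EE2 replicates 1 to 4 and open circles are the 6 controls. Replicate 3 lies nearest to the controls in Hsd3b5, C9 and Saa1, and replicate 2 does so in Krt79 and Slco2a1.

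Promoters are shown for the 3 largest rises and the 3 largest falls that have one in RefSeq's promoter table for GRCm38.p6. 21 of the 30 genes above had an entry, and Cyp17a1, Cyp4a14, Car3 and Elovl3 were among those without one. Each line holds the 250 bases before the annotated start, 5′ to 3′ on the gene's strand. The positions are chr8:70632457-70632706, chr16:21787835-21788084, chr15:101940325-101940574 and chr3:98645535-98645784 on the minus strand, and chr10:24223267-24223516 and chr15:6445096-6445345 on the plus strand. For Gdf15, which has 2 starts in the table, the upstream one is shown. Capitals mark a match to a searched motif.
Gdf15: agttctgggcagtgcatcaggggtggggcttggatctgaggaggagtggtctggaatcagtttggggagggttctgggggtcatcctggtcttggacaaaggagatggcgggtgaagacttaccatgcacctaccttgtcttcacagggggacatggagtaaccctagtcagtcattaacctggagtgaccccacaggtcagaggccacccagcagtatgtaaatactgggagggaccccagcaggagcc
Ehhadh: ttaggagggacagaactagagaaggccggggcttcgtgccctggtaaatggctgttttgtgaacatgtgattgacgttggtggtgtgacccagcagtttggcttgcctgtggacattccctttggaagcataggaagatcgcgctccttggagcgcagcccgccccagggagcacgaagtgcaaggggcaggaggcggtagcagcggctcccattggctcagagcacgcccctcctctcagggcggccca
Krt79: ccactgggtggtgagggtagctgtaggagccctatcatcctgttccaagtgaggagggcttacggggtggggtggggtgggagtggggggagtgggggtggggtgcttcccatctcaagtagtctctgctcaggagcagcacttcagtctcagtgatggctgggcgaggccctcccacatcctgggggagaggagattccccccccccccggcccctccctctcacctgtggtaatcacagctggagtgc
Hsd3b5: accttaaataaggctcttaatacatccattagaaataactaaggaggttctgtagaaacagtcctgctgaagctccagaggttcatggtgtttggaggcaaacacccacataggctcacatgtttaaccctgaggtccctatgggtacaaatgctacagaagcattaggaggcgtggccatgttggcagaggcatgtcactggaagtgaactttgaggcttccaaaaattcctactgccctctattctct
Moxd1: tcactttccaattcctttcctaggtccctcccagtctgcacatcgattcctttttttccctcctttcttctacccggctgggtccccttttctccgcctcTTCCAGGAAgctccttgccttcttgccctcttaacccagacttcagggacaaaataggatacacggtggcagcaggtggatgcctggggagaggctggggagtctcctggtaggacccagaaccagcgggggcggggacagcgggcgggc
C9: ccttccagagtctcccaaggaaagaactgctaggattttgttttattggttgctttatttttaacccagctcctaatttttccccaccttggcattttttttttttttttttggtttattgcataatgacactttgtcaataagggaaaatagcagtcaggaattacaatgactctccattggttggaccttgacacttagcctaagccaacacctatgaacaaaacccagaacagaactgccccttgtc
Both strands were searched for 4 motifs. These were the estrogen response element, written as GGTCA and TGACC with any 3 bases between them, the STAT site TTCNNNGAA, the direct repeat that PPAR dimers bind, written as AGGTCA and AGGTCA with any 1 base between them, and the glucocorticoid response element, written as AGAACA and TGTTCT with any 3 bases between them. No match of one motif overlapped a match of another in the 6 windows. Moxd1 held 1 STAT site, TTCCAGGAA, from 150 to 142 bases before its start. None of the 4 motifs was found in the windows of the other 5 genes. Of the 32851 promoter windows of this length in the table, 0.0639% held the estrogen response element, 7.02% the STAT site, 0.0335% the direct repeat and 0.00913% the glucocorticoid response element. No match says only that these letters are not in this window.

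Genes known to be higher in male than in female mouse liver fell together. Of 31 such genes tested, 25 fell, against 7.06% of all genes, and none rose. Their median log2 change was -1.17, against 0.00 for all genes. This list and those below were drawn up with earlier results of these data known. Their counts are therefore descriptions, and no list was tested as a set. 20 fell without EE2 replicate 2, 26 without EE2 replicate 3 and 23 without control replicate 2. Besides Hsd3b5, Elovl3, Cyp4a12a, Moxd1 and Car3, they included Cyp2d40, a cytochrome P450, at 279.5, 863, 592 and 598 on EE2 arrays against 2392 to 4134 (median 3504) (log2 change -2.60 ± 0.23, adjusted p = 9.76e-14). Selenbp2, a selenium-binding protein, read 1211, 710.3, 1636 and 1061 against 2377 to 4545 (median 3238) (log2 change -1.56 ± 0.28), and Egfr, the epidermal growth factor receptor, read 1149, 583, 1281 and 1023 against 1610 to 2793 (median 2140) (-1.17 ± 0.20). Nudt7, a peroxisomal coenzyme A hydrolase, changed by -1.30, Gna14, a G-protein subunit, by -1.20, and Gstp1, a glutathione transferase close in sequence to Gstp2, by -0.69 (adjusted p = 0.0789 without replicate 2). The male pattern was not lost throughout. Cyp7b1, an oxysterol hydroxylase, read 13114, 6189, 13830 and 14310 against 11429 to 14639 (median 12166) (adjusted p = 0.629), with 3 EE2 arrays within the control range and replicate 2 far below it. Slco1a1, a male-biased transporter, was not detected on any of the 10 arrays and gives no information.

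The major urinary proteins are secreted lipocalins that male mice excrete in large amounts. All 6 entries tested fell, against 7.06% of all genes, with a median of -0.74. 3 fell without EE2 replicate 1 or without replicate 4. Mup6 read 4636, 6978, 11347 and 4782 against 10616 to 12871 (median 11141) (log2 change -0.82 ± 0.18, adjusted p = 0.00103), and Mup2 read 6646, 10245, 14104 and 5546 against 11899 to 14474 (median 13262) (-0.63 ± 0.19, adjusted p = 0.0178). In both, replicate 3 was within the control range and replicates 1 and 4 were the lowest. Mup2 did not pass in 2 of the 10 fits that left out 1 array, with an adjusted p of up to 0.174. Mup4 showed the same order more sharply, at 203, 227, 1741 and 163 against 1295 to 1846 (median 1514). No EE2 array had a detection p under 0.05 for Mup4 and 2 of 6 controls did, so the detection p does not follow the signal here. The log2 change was -2.08 ± 0.35 (adjusted p = 1.35e-05), with replicate 3 within the control range. These genes are nearly identical in sequence, and their signals may not be separate.

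Female-biased genes rose in part. 8 of 16 tested rose, against 6.29% of all genes, and none fell. The median was 0.30. 5 rose without EE2 replicate 2 and 10 without replicate 3. Cux2, a homeobox repressor found in female liver, read 115, 237, 98.8 and 327 against 99.2 to 104 (median 103) (log2 change 0.68 ± 0.16, adjusted p = 0.0024), and the call was lost without replicate 4 (adjusted p = 0.0936). Acot3, a peroxisomal acyl-CoA thioesterase, read 128, 1843, 99.1 and 468 against 94.3 to 109.8 (median 97.4) (adjusted p = 0.0114). It rested on replicates 2 and 4, with an adjusted p of 0.251 without the former and 0.0516 without the latter. Cyp39a1, an oxysterol hydroxylase, rose by 0.35 ± 0.09 and was not called without replicate 2 (adjusted p = 0.202). Cyp2b9, a female-specific cytochrome P450, was undetected on every control, at 96.6 to 103, and read 174, 2316, 95.3 and 236 on EE2 arrays. The 4 arrays ran from background to a high signal on replicate 2, and the change missed the threshold (adjusted p = 0.0617). A1bg and Prom1, which are also female-biased, read 96.0 to 124 and 98.7 to 113 on EE2 arrays, close to background as in controls (adjusted p = 0.54 and 0.814).

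Genes known as estrogen receptor targets in one tissue or another had a median of -0.00. Of 12 tested, 2 rose, 1 fell and 9 did not pass. Over all genes 6.29% rose and 7.06% fell, and whether the list differs from these shares was not tested. Lifr, the leukemia inhibitory factor receptor, read 212, 167, 226 and 201 against 121 to 165 (median 127) (log2 change 0.52 ± 0.14, adjusted p = 0.00653). The chemokine Cxcl12 read 1452, 1308, 2271 and 1436 against 857 to 1042 (median 1007) (0.67 ± 0.16, adjusted p = 0.00221). Both were above every control on all 4 EE2 arrays. Pdzk1, a scaffold protein that binds the HDL receptor, fell, at 1052, 1839, 951 and 1006 against 1715 to 2124 (median 1893) (-0.68 ± 0.17, adjusted p = 0.0037), with replicate 2 within the control range. Greb1 and Pgr, which are standard estrogen-induced genes of breast and uterus, read 99.2 to 106 and 92.5 to 101 on the EE2 arrays, at background.

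Growth hormone and STAT5 genes gave 3 rises and 1 fall among 15, where 6.29% of all genes rose and 7.06% fell. Igfbp1, an IGF-binding protein, read 323, 258, 153 and 164 against 96.8 to 115 (median 107) (log2 change 0.92 ± 0.18, adjusted p = 0.000139). Bcl6, a male-biased repressor of STAT5 targets, read 417, 186, 392 and 161 against 478 to 1075 (median 767) (-1.39 ± 0.41, adjusted p = 0.0158). Its adjusted p was 0.0608 without EE2 replicate 2 and 0.0856 without replicate 4. Stat5a itself read 434, 246, 448 and 264 against 174 to 269 (median 210.3) (0.63 ± 0.17, adjusted p = 0.00779), with adjusted p values of 0.0737 and 0.0544 without replicates 1 and 3. The direct STAT5 targets Cish and Socs2 did not pass. Cish was below every control on 3 of 4 EE2 arrays and Socs2 lay on both sides of the controls: Cish read 285, 487, 355 and 1096 against 524 to 2267 (median 1367) (adjusted p = 0.274), and Socs2 read 923, 1719, 486 and 3952 against 575 to 2724 (median 1340) (adjusted p = 0.945). The growth factor gene Igf1 read 4042, 2523, 3377 and 3032 against 3817 to 6124 (median 4219) (adjusted p = 0.0546).

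Genes of bile acid synthesis moved in both directions. Of 19 genes tested, 3 rose and 4 fell, against 6.29% and 7.06% of all genes, with a median of 0.03. 2 fell when EE2 replicate 1 or 3 or control replicate 1, 2, 4 or 6 was left out, and 1 rose without EE2 replicate 2. Cyp8b1, the sterol 12-alpha-hydroxylase that makes cholic acid, read 2553, 3307, 2059 and 2905 against 7546 to 9240 (median 8306) (log2 change -1.64 ± 0.37, adjusted p = 0.00111), and every EE2 array was far below the lowest control. Hsd3b7, which acts on the sterol ring early in the pathway, read 6498, 6411, 8303 and 4602 against 10855 to 12836 (median 12137) (-0.93 ± 0.15, adjusted p = 6.16e-06). Acox2, the peroxisomal oxidase of the side chain, rose instead, at 6446, 4467, 4920 and 6069 against 2694 to 3266 (median 2939) (0.87 ± 0.12, adjusted p = 6.51e-07). Cyp7a1, the rate-limiting enzyme, read 1151, 1977, 398 and 3632 against 357 to 931 (median 487). 3 EE2 arrays were above every control and replicate 3 was not (adjusted p = 0.0932, and 0.0168 without replicate 3). Nr1h4, the bile acid receptor FXR, read 1392, 2365, 2126 and 3039 against 1583 to 3090 (median 1891) (adjusted p = 0.859).

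Among 13 bile acid and sterol transporters tested, 3 rose and 3 fell, against 6.29% and 7.06% of all genes, with a median of 0.02. Abcc3, described above, was the largest change. Atp8b1, a phospholipid flippase whose loss causes cholestasis in humans, read 593, 531, 570.3 and 761 against 807 to 1152 (median 955) (log2 change -0.64 ± 0.16, adjusted p = 0.00295). Slc51b, a subunit of the basolateral bile acid exporter, and Abcg5, a half-transporter of sterols, rose by 0.41 ± 0.14 and 0.61 ± 0.18. Abcg5 was not called without replicate 4 (adjusted p = 0.114), and Slc51b passed in only 3 of the 10 fits that left out 1 array (adjusted p up to 0.228). Abcb11, the canalicular bile salt export pump, read 739.7, 1052, 835 and 746 against 811 to 1406 (median 1330) (-0.52 ± 0.17, adjusted p = 0.036). This call was lost when any of EE2 replicates 1, 3 and 4 or control replicates 3, 4, 5 and 6 was left out, with adjusted p values of 0.131, 0.0564 and 0.113 and of 0.0614, 0.0722, 0.0669 and 0.0665. The uptake transporter Slc10a1 read 138, 201, 113 and 159.6 against 117 to 153 (median 136) (adjusted p = 0.443), at low signal.

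Of 16 genes of steroid metabolism tested, 5 fell and 1, Cyp17a1, rose, against 7.06% and 6.29% of all genes. 3 fell without EE2 replicate 1, and 2 rose without EE2 replicate 2 or without replicate 3. Cyp1a2, which hydroxylates estradiol and caffeine, read 739, 2097, 872 and 913 against 2886 to 3717 (median 3162) (log2 change -1.61 ± 0.29, adjusted p = 5.72e-05). Hsd17b12, a 3-ketoacyl-CoA reductase that also reduces estrone, changed by -0.60 ± 0.17 (adjusted p = 0.0132, and up to 0.0941 with 1 array left out). The estrogen sulfotransferase Sult1e1 was near background on all 10 arrays, at 99.4 to 113 on EE2 arrays and 95.7 to 107 on controls.

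Genes that respond to the xenobiotic receptors CAR and PXR were, by their median, higher on 3 of the 4 EE2 arrays. Their median over the 15 tested was 0.41, and the medians of replicates 1 to 4 against the control mean were 0.44, 1.14, -0.05 and 1.00. Without replicate 3 the list's median was 0.96. 2 genes passed the test, against 13.3% of all genes, and 5 did so without replicate 3. Por, the electron donor of cytochromes P450, read 752, 1462, 259 and 1634 against 220.2 to 376 (median 233) (log2 change 1.67 ± 0.30, adjusted p = 3.62e-05), with replicate 3 within the control range. Cyp3a11, a main drug-metabolizing P450, read 1022, 2737, 1094 and 1507 against 355 to 898 (median 732) (1.10 ± 0.40, adjusted p = 0.0594). Its EE2 arrays all lay above every control. Cyp2b10, the usual marker of CAR activity, was not detected on any of the 10 arrays. NRF2 targets showed 1 rise, Abcc3, and 1 fall, Taldo1, among 17 tested, against 6.29% and 7.06% of all genes. Nqo1 read 123, 114, 108 and 113 against 100.1 to 112 (median 103) (adjusted p = 0.0955). The Taldo1 call was lost without EE2 replicate 2 (adjusted p = 0.105).

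PPAR-alpha targets, the genes of fatty acid oxidation, split by member. 5 of 20 tested rose and 1 fell, against 6.29% and 7.06% of all genes, with a median of 0.10. Without EE2 replicate 2, 2 rose and 3 fell. The fall, of Plin2, was not called without EE2 replicate 1 or 4 or without control replicate 2 (adjusted p = 0.127, 0.217 and 0.0581). Beside Cyp4a14 and Ehhadh, Acadm, the medium-chain acyl-CoA dehydrogenase, read 7404, 14724, 5703 and 7189 against 4828 to 5793 (median 5480) (log2 change 0.60 ± 0.18, adjusted p = 0.0145), and the thioesterase Acot4 rose by 0.93 ± 0.25. Neither was called without replicate 2 (adjusted p = 0.247 and 0.17). Pdk4, a kinase that inhibits pyruvate dehydrogenase, read 183, 246, 157 and 164 against 116 to 333 (median 158) (adjusted p = 0.853). Replicate 2 was the highest EE2 array in each of Acadm, Acot3, Acot4 and Pdk4.

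Lipid synthesis genes fell in both branches. In fatty acid synthesis 8 of 20 tested fell and none rose, with a median of -0.56. In cholesterol synthesis 10 of 21 fell and none rose, with a median of -0.53. Of all genes 7.06% fell. The counts were 7 and 10 without EE2 replicate 2, 9 and 10 without replicate 3, and 8 and 9 without control replicate 2. Fads2, the delta-6 desaturase, read 288, 787, 478 and 313 against 849 to 1881 (median 1104) (log2 change -1.39 ± 0.25, adjusted p = 4.03e-05), and Elovl5, which elongates polyunsaturated fatty acids, read 3266, 6692, 7488 and 3400 against 8751 to 12669 (median 10263) (-1.07 ± 0.21, adjusted p = 0.000268). Both were below every control on all 4 EE2 arrays. Acss2, which makes acetyl-CoA from acetate, and the citrate carrier Slc25a1 changed by -1.27 ± 0.29 and -0.77 ± 0.16 (adjusted p = 0.00146 and 0.000665). Acly, which makes acetyl-CoA from citrate, read 4319, 1958, 6552 and 3157 against 4270 to 8232 (median 4935) (adjusted p = 0.268), and Thrsp, a lipogenic regulator, read 2054, 363, 1376 and 1384 against 1207 to 2935 (median 1971) (adjusted p = 0.446).

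Of the sterol enzymes, Sc5d read 182, 217, 268 and 135 against 388 to 648 (median 483) (log2 change -1.25 ± 0.19, adjusted p = 1.31e-06), Dhcr7 read 248, 243, 334 and 190.1 against 447 to 691 (median 544) (-1.10 ± 0.20, adjusted p = 3.93e-05) and Tm7sf2 read 123, 213, 153 and 167 against 306 to 449 (median 339) (-1.06 ± 0.14, adjusted p = 1.16e-07). These late enzymes of the pathway had no overlap between groups. Cyp51, the lanosterol demethylase, changed by -1.12 ± 0.29, and Nsdhl, which acts in the same demethylation, by -0.90 ± 0.16. Insig1, which restrains SREBP processing, and Srebf2, the transcription factor of the pathway, changed by -0.59 ± 0.11 and -0.38 ± 0.12. Srebf2 was called in 7 of the 10 fits that left out 1 array (adjusted p up to 0.0739). The early enzyme Fdps read 12769, 2270, 10350 and 7869 against 6425 to 10557 (median 9651), with only replicate 2 below the controls (adjusted p = 0.617).

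Genes of gluconeogenesis and amino acid use rose in part, with 8 rises and 1 fall among 27 tested and a median of 0.35. Of all genes 6.29% rose and 7.06% fell. Pck1, the control enzyme of gluconeogenesis, read 257, 681, 198 and 389.7 against 137 to 166 (median 149) (log2 change 1.10 ± 0.21, adjusted p = 0.000167). Asl, the urea cycle lyase, read 1987, 1595, 965 and 2704 against 692 to 1059 (median 801) (1.03 ± 0.25, adjusted p = 0.00273), and Sds, serine dehydratase, read 3511, 3117, 2284 and 7670 against 1299 to 2526 (median 1500) (1.16 ± 0.29, adjusted p = 0.00336). The Sds call was lost without replicate 4 (adjusted p = 0.0677). Arg1, the arginase of the urea cycle, and Gpt2, alanine aminotransferase, rose by 0.42 ± 0.09 and 0.77 ± 0.20. The fall was that of Agxt, alanine-glyoxylate aminotransferase, at 2497, 3050, 1995 and 2600 against 3684 to 4152 (median 3801) (-0.63 ± 0.18, adjusted p = 0.0129), and no gene of the list fell without EE2 replicate 3 (Agxt, adjusted p = 0.0627). G6pc, glucose-6-phosphatase, read 5272, 1542, 3816 and 1793 against 1138 to 5131 (median 1896) (adjusted p = 0.605), so its groups overlapped.

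Glucocorticoid receptor targets had a median of 0.64, the highest of the pathway lists over all arrays, and 0.71 without EE2 replicate 3, when that of CAR and PXR targets was higher at 0.96. 11 of 22 tested rose, against 6.29% of all genes, and none fell. 10 rose without EE2 replicate 2 and 11 without replicate 3. Sgk1, a kinase that regulates ion transport, read 4933, 1847, 2958 and 1607 against 525 to 1111 (median 678) (log2 change 1.84 ± 0.28, adjusted p = 1.68e-06). Fkbp5, a co-chaperone of the receptor, read 441, 854, 178 and 1162 against 139.9 to 242 (median 153) (1.60 ± 0.30, adjusted p = 9.19e-05). All Sgk1 values of EE2 arrays exceeded the controls, whereas replicate 3 of Fkbp5 lay within them. Nfkbia, an inhibitor of NF-kappa-B, and Tsc22d3, the glucocorticoid-induced leucine zipper, rose by 0.73 ± 0.18 and 0.86 ± 0.28, the latter in 5 of the 10 fits that left out 1 array (adjusted p up to 0.0808). Ddit4, an inhibitor of mTORC1, read 906, 233, 573 and 1418 against 153 to 293 (median 209) (1.56 ± 0.35, adjusted p = 0.001), with replicate 2 within the control range. Lpin1, a phosphatidate phosphatase, read 659, 475, 242 and 1439 against 168 to 220.4 (median 183) (adjusted p = 0.00386, and 0.0667 without replicate 4). No array had a detection p under 0.05 for it, although all 4 EE2 values were above every control. Several members also belong to other lists, and Pck1, Sds, Igfbp1 and Per1 are counted in each.

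Clock genes moved in both directions. 7 of 14 tested rose and 2 fell, against 6.29% and 7.06% of all genes, with a median of 0.34. 4 rose without EE2 replicate 1, 3 without replicate 2 and 3 without replicate 4, and the falls became 1 or 0 without EE2 replicate 1 or 4 or control replicate 1, 3, 4, 5 or 6. Per1, a repressor of the clock loop, read 442, 331, 183 and 461 against 107 to 132 (median 117) (log2 change 1.38 ± 0.21, adjusted p = 2.30e-06), above every control on all 4 arrays. Ciart, another repressor, read 429, 476, 104 and 803 against 99.6 to 125 (median 105) (1.64 ± 0.29, adjusted p = 2.80e-05), with replicate 3 at the control level. The output gene Dbp, a PAR-bZIP factor, followed the same order, at 1723, 3185, 203 and 3253 against 186 to 793 (median 245) (adjusted p = 0.06, 0.00842 without EE2 replicate 3 and 0.0453 without control replicate 2). The activator Arntl read 122, 115, 164 and 103 against 105 to 264 (median 204) (-0.57 ± 0.20, adjusted p = 0.043) and its partner Clock changed by -0.33 ± 0.09. Arntl passed in 2 of the 10 fits that left out 1 array (adjusted p up to 0.143) and Clock in 9 (up to 0.0557). Control replicate 2 was the highest control in Dbp, at 793, and in the repressor Nr1d1, at 637 against 128 to 215 on the other controls.

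Among 20 genes of endoplasmic reticulum stress and the integrated stress response, 5 rose and none fell, with a median of 0.27. Of all genes 6.29% rose. 3 rose without EE2 replicate 1 and 3 without replicate 2. Apart from Gdf15, Trib3, a pseudokinase induced by ATF4, read 303, 379, 133 and 307 against 123 to 149 (median 126) (log2 change 0.93 ± 0.19, adjusted p = 0.000396), and Herpud1, of ER-associated degradation, read 9847, 16704, 5539 and 9587 against 3674 to 7057 (median 5270) (0.90 ± 0.24, adjusted p = 0.00612, and 0.081 without replicate 2). The central genes of these responses did not pass. Ddit3 (CHOP) read 216, 162, 154 and 132 against 136 to 173 (median 152) (adjusted p = 0.765), Hspa5 (BiP) read 248, 175, 127 and 128 against 102 to 163 (median 128) (adjusted p = 0.179), and Xbp1 read 5484, 4885, 5382 and 4439 against 4711 to 6740 (median 5443) (adjusted p = 0.65). Of 11 heat shock genes none passed in limma, with a median of 0.02 and 4 at an unadjusted p under 0.05, and 1 rose when EE2 replicate 1 or 3 or control replicate 3 or 4 was left out.

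Isyna1, which makes inositol from glucose 6-phosphate, had the highest change among genes whose groups overlapped. It read 4536, 241, 9763 and 4659 on EE2 arrays and 132 to 571 (median 169) on controls (log2 change 3.63 ± 0.55, adjusted p = 1.77e-06). 3 EE2 arrays were far above the highest control and replicate 2 was among the controls. Of the 9 inositol genes tested 3 rose, against 6.29% of all genes, and the other 2 were Itpk1 and Miox, at 0.92 and 0.38. Without EE2 replicate 1, 1 rose. Itpk1 had an adjusted p of 0.183 without replicate 1 and 0.061 without replicate 4, and that of Miox rose above the threshold without EE2 replicate 1 or 3 (0.331 and 0.124) or any of control replicates 1, 3, 5 and 6 (0.0503, 0.0555, 0.0565 and 0.0594).

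Of the proteins that the liver secretes into blood, complement and coagulation factors fell. 13 of 29 tested fell, against 7.06% of all genes, and none rose, with a median of -0.36. 7 fell without EE2 replicate 1, 14 without replicate 2 and 10 without replicate 3. C4b read 1449, 1524, 3106 and 2497 against 3973 to 7054 (median 4858) (log2 change -1.27 ± 0.25, adjusted p = 0.000167). C8b read 3295, 1984, 4362 and 3537 against 5144 to 8793 (median 6713) (-1.04 ± 0.17, adjusted p = 6.12e-06), and C6, like C9 part of the membrane attack complex, read 615, 237, 2074 and 453 against 2021 to 2612 (median 2214) (-1.85 ± 0.33, adjusted p = 4.84e-05). Replicate 3 of C6 was within the control range. Hc, which encodes C5, and Masp2, a protease of the lectin pathway, changed by -0.72 ± 0.19 and -0.68 ± 0.14, and Hc was not called without replicate 1 (adjusted p = 0.0725). In coagulation, F10 changed by -0.58 ± 0.13 and the fibrinolytic zymogen Plg by -0.45 ± 0.14 (adjusted p up to 0.212 with 1 array left out), while F9, F11 and F2 did not pass, at -0.17, -0.28 and -0.28. C3, the central component, read 9969, 8751, 9969 and 10918 against 7999 to 10350 (median 8821) (adjusted p = 0.487).

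Acute-phase genes were less uniform, with 1 rise and 3 falls among 23 and a median of -0.16. Of all genes 6.29% rose and 7.06% fell. Saa1 read 133, 115, 726 and 139 against 924 to 1706 (median 1050) (log2 change -2.41 ± 0.74, adjusted p = 0.0205). Replicates 1, 2 and 4 were near background and replicate 3 was just below the controls. Saa2 and Saa4 changed by -1.96 ± 0.62 and -0.96 ± 0.33. Without EE2 replicate 1 the adjusted p was 0.0798 for Saa1, 0.0949 for Saa2 and 0.215 for Saa4. No acute-phase gene fell without EE2 replicate 1, 1 fell without EE2 replicate 2 or 4 or control replicate 1, and 5 fell without EE2 replicate 3. Saa1 and Saa2 are near copies. Crp, C-reactive protein, rose, at 9000, 11503, 8751 and 10779 against 6446 to 7702 (median 7214) (0.47 ± 0.12, adjusted p = 0.0047). Orm2, an acid glycoprotein, read 746, 313, 7999 and 1128 against 2281 to 13489 (median 5503) (adjusted p = 0.105, and 0.0206 without replicate 3).

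Replicate 3 also stood apart in immune and proliferation genes. The median of the 12 macrophage markers tested, against the control mean, was 0.65, -0.61, 2.00 and -0.16 on EE2 replicates 1 to 4, and between -0.19 and 0.11 on the controls. The list's median change was 0.46 over all EE2 arrays and -0.05 without replicate 3. Their summed intensity ran from 3368 to 30319 on EE2 arrays and from 4772 to 6741 on controls, and all 12 were detected on at least 1 of the 10 arrays. C1qb, a complement component made by macrophages, read 2094, 519.8, 6668 and 835 against 759.5 to 1386 (median 1032) (adjusted p = 0.439), and Vsig4, a complement receptor of Kupffer cells, read 2673, 842, 6261 and 1053 against 1065 to 1449 (median 1324) (adjusted p = 0.367). Replicate 3 was the highest of the 10 arrays in both. In bulk tissue a change in the number of cells of a type and a change in RNA per cell cannot be told apart. 1 of the 12 macrophage genes, Marco, passed the test (0.41 ± 0.14, adjusted p up to 0.229 with 1 array left out), against 13.3% of all genes. 3 did so without EE2 replicate 2, and none did without EE2 replicate 1, 3 or 4 or control replicate 1, 2, 3, 4 or 6. The MHC class II list, with 7 genes tested and none called by limma (0 at an unadjusted p under 0.05), had medians of -0.14, -0.28, 1.35 and -0.44, and the antigen-presentation gene Cd74 read 499, 729, 3981 and 372 against 907 to 1474 (median 1076).

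The interferon list gave 1 fall, Mx2, among 13, against 7.06% of all genes. The Mx2 call was lost without EE2 replicate 1 or 4 (adjusted p = 0.107 and 0.086). Array medians of this list were -0.60, -0.19, 0.76 and -0.60. Irf7, a driver of interferon genes, read 153, 180.3, 876 and 160 against 182 to 440.2 (median 260) (adjusted p = 0.922). 3 of 14 cell cycle genes rose, against 6.29% of all genes. 8 rose without EE2 replicate 2 and none without replicate 3. Cdc20, an activator of the anaphase-promoting complex, read 106, 101, 632 and 103 against 102 to 117 (median 110) (adjusted p = 0.054), and Birc5 (survivin) read 105, 105, 426 and 113 against 98.1 to 113 (median 107) (adjusted p = 0.0292, 0.98 without EE2 replicate 3 and 0.0503 without control replicate 5). No cell cycle gene rose without control replicate 5. Cdc20 and Birc5 were at background on the EE2 arrays other than replicate 3. Replicate 3 had the highest median of the EE2 arrays for the macrophage, interferon, cell cycle and acute-phase lists. On replicate 1 the macrophage median was 0.65, but those of the interferon, cell cycle and acute-phase lists were -0.60, -0.01 and -0.25. The part of the macrophage values in the other lists was not tested.

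For the counts of cell-type markers that follow, 6.29% of all genes rose and 7.06% fell. Of 8 neutrophil markers Prtn3, described below, rose. Their median was 0.74 on replicate 3 and -0.06 to -0.02 on the other EE2 arrays. Their summed intensity was 1419 to 10670 on EE2 arrays and 962 to 2168 on controls. Of the 12 endothelial markers Lyve1, a hyaluronan receptor of sinusoidal cells, rose, at 309, 234, 218 and 298 against 105 to 170.1 (median 129) (log2 change 0.93 ± 0.17, adjusted p = 6.65e-05), and Eng, a TGF-beta co-receptor, fell, with a change of -0.51 ± 0.11. Their summed intensity was 5968 to 8712 on EE2 arrays and 5256 to 7233 on controls. Hepatocyte markers had a median of 0.04, with 1 of 10 called, Tat (0.23 ± 0.05). The erythroid marker Alas2 read 178, 239, 819 and 281 against 1883 to 2712 (median 2080) (-2.72 ± 0.22, adjusted p = 4.01e-15). Hba-a1, an alpha-globin gene with a near-identical copy, read 2447, 2804, 17112 and 5356 against 7609 to 13114 (median 11926) (adjusted p = 0.1), with replicate 3 above every control and the other EE2 arrays below them. Without replicate 3, 3 of the 5 erythroid genes fell. The summed intensity of the 5 erythroid genes was 2946 to 18394 on EE2 arrays and 10080 to 16343 on controls, and its part in the fall of Alas2 was not tested. Of 2 pancreatic acinar genes tested, Cela1, a pancreatic elastase that is also read in liver, fell. It read 438, 501, 977 and 428 against 1730 to 2478 (median 1958) (-1.83 ± 0.26, adjusted p = 5.95e-07), while Ctrb1 was at background, at 98.7 to 104 and 100.3 to 106. T and NK cell, B cell and adipocyte lists had no called gene among 8, 3 and 2, with summed intensities of 840 to 1010, 310 to 380 and 201 to 212 on EE2 arrays and 854 to 895, 323 to 353 and 198 to 226 on controls. In limma 1 of those genes had an unadjusted p under 0.05.

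**Figure D3:**
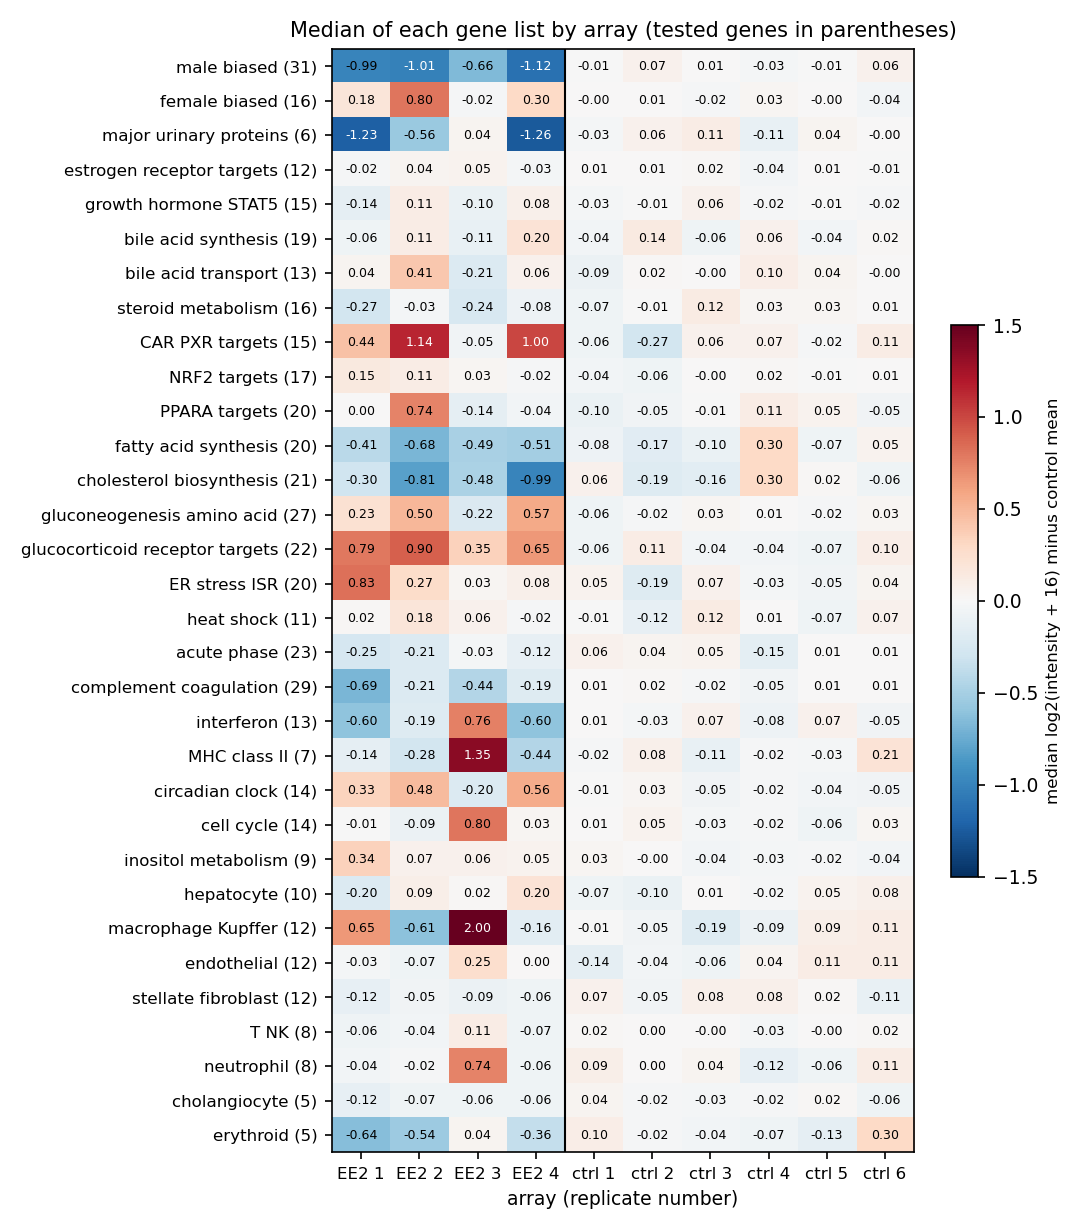
Median over each gene list of log2(intensity + 16) minus the control mean, by array, for lists with at least 5 tested genes (number in parentheses). Columns are EE2 replicates 1 to 4 and control replicates 1 to 6, red is above and blue is below the control mean. The male-biased row is below 0 on all 4 EE2 arrays (-0.66 to -1.12), and replicate 3 is the highest array for macrophage (2.00) and MHC class II (1.35) genes, with replicate 1 at 0.65 for macrophage genes.

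The 4 EE2 arrays were then placed between the controls and each other. For genes called at an absolute log2 change of at least 1 without a given array, that array's change was taken as a percentage of the mean change of the other 3. The median percentage was 116.9 for replicate 1 (137 genes), 68.9 for replicate 2 (201 genes), 40.9 for replicate 3 (249 genes) and 109.4 for replicate 4 (152 genes). Replicate 2 lay within the control range for 20.4% of its genes and replicate 3 for 30.9%, against 3.65% and 7.24% for replicates 1 and 4. By this measure replicate 3 lay nearer to the controls than replicate 2 did. With the title numbers read as chips, replicates 1 and 4 each shared a chip with a control and replicates 2 and 3 did not. The part of the chip in this order was not tested.

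Replicate 2 read near control in several of the genes that were raised most on the other arrays. 232 of the 11352 genes tested passed without it, lay on one side of the controls on the other 3 arrays and were within the control range on replicate 2. Of these, 126 were higher and 106 lower. Isyna1 is described above. Prtn3, a serine protease of neutrophil granules, read 2846, 612, 8168 and 2827 against 179 to 1373 (median 342) (log2 change 2.72 ± 0.56, adjusted p = 0.000367), while the neutrophil genes S100a8 and Mpo read 218, 155, 1334 and 166 and 97.8, 99.6, 107 and 95.8 on the same arrays. Chst8, a sulfotransferase of hormone glycans, read 1362, 109.9, 1229 and 254 against 105 to 122 (median 110.2) (1.95 ± 0.43, adjusted p = 0.000946). Csad, the decarboxylase of taurine synthesis, read 2256, 484, 3382 and 3196 against 376 to 657 (median 457) (1.95 ± 0.40, adjusted p = 0.000367). In Prtn3, Chst8 and Csad replicate 2 was within the control range and the other 3 EE2 arrays were above it, which is the rule that chose them.

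Falls were chosen by the same rule. Sult2a8, a bile acid sulfotransferase of the mouse liver, read 208, 1925, 539.6 and 245 against 1039 to 2151 (median 1702) (-1.69 ± 0.39, adjusted p = 0.00175), and the carboxylesterase Ces1f read 311, 2020, 209 and 258 against 382 to 3511 (median 2880) (adjusted p = 0.0103, 0.000809 without replicate 2 and 0.0523 without replicate 4). Serpina6, corticosteroid-binding globulin, read 219, 2340, 1199 and 815 against 1460 to 2396 (median 1721), and was called only when replicate 2 or replicate 3 was left out (adjusted p = 0.0617 over all arrays, 0.00645 and 0.043). Alox5ap, which presents arachidonic acid to 5-lipoxygenase, and Tnfrsf12a, a receptor of the TNF family, rose. They read 893, 230.2, 1244 and 288 and 1382, 298, 784 and 355 on the EE2 arrays, against 207 to 256 and 216 to 334, and both calls were lost without replicate 1 (adjusted p = 0.117 and 0.187), that of Alox5ap also without replicate 3 (0.15). Replicate 2 was not near control throughout: it was among the highest arrays for Cyp4a14 and Acot3, and it had the lowest Scd1 and the second lowest Hsd3b5.

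By the same rule for replicate 3, 552 of the 11352 genes tested passed without it and were within the control range on it alone of the EE2 arrays. Of these, 336 were higher and 216 lower on the other 3 arrays. Dbp, Orm2, Mup4, C6 and Por, described above, are among them. Fam25c read 198, 159.5, 886 and 172 against 852 to 2039 (median 1352) (log2 change -2.19 ± 0.37, adjusted p = 1.83e-05). Etnppl, an ethanolamine-phosphate phospholyase, read 2036, 1207, 371 and 1988 against 198 to 477 (median 350.2) (1.81 ± 0.45, adjusted p = 0.00322). In each, replicate 3 was among the controls and the other 3 EE2 arrays were on one side of them, which is the rule that chose these genes. The gene set for replicate 3 was added after its values were seen.

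**Figure D4:**
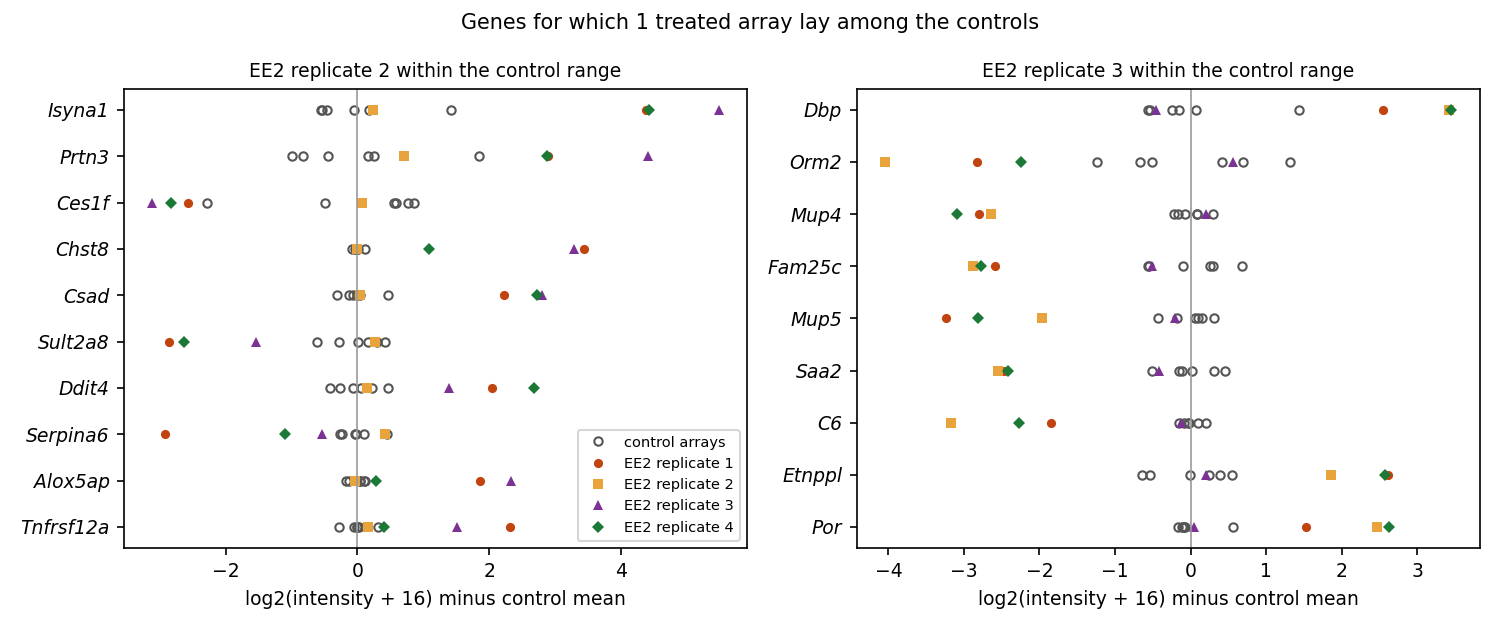
Log2(intensity + 16) minus the control mean for the 10 genes with the largest change without EE2 replicate 2 whose replicate 2 lay within the control range (left), and 9 such genes for replicate 3 (right). Filled symbols are EE2 arrays and open circles are controls. Squares (replicate 2) sit on the controls at left and triangles (replicate 3) do so at right.

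The same genes were then followed at the higher doses of 2.5, 5 and 10 ppm. Each dose had 4 arrays, and the differences between doses were tested directly, without the controls. Against 1 ppm, 1 gene passed at 2.5 ppm (0.00881% of 11352), 31 at 5 ppm (0.273%) and 1220 at 10 ppm (10.7%), of which 736 were higher (6.48%) and 484 lower (4.26%) at 10 ppm. At 2.5 ppm none was higher, and at 5 ppm 20 were higher (0.176%) and 11 lower (0.0969%). At an unadjusted p under 0.05 there were 409, 1058 and 2743. With the spread taken from the 2 doses compared and not from all 80 arrays, no gene passed at any of the 3 doses, against 180, 287 and 1605 at an unadjusted p under 0.05 in limma. These counts moved strongly with single arrays. The count at 10 ppm was 340, 2086 and 536 without 1 ppm replicate 2, 3 and 4, and 1910, 552 and 693 without 10 ppm replicates 2, 3 and 4. The count at 5 ppm was 129, 13, 124 and 10 without 1 ppm replicates 1 to 4, 518 without 5 ppm replicate 2 and 1 without 5 ppm replicate 4. At 2.5 ppm it was 0, 3 and 5 without 1 ppm replicate 1, 2 and 4, and 15, 13 and 4 without 2.5 ppm replicate 1, 2 and 4. A missed threshold does not show that 2 doses act alike.

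The 10 ppm arrays read 10015, 7365, 9321 and 11089 for Cyp17a1, and those of the middle doses lay at 8264 to 16266 (2.5 ppm) and 6692 to 13829.5 (5 ppm). The log2 difference of 10 from 1 ppm was 0.18 ± 0.40 (adjusted p = 0.852). Gdf15 read 1427 to 4210.3, 1654 to 4219 and 2206 to 4429 in rising order of dose, with a difference of 0.68 ± 0.30 between 10 and 1 ppm (adjusted p = 0.143). Hsd3b5 fell further, to 178, 112, 112 and 121 at 10 ppm (-1.44 ± 0.27, adjusted p = 0.000267), while Elovl3, detected on 1 array at 1 ppm and 1 at 2.5 ppm, was not detected on any array at 5 or 10 ppm. The 1 and 10 ppm arrays overlapped in Cyp17a1 and Gdf15, and in Hsd3b5 the highest 10 ppm array was level with the lowest at 1 ppm.

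Other genes differed between 1 and 10 ppm by more. Cyp8b1, already lower at 1 ppm, read 115, 301, 111 and 515 at 10 ppm, with a difference of -3.54 ± 0.40 (adjusted p = 1.44e-08). Cyp7a1, with 3 of 4 arrays above the controls at 1 ppm, read 103, 313, 95.2 and 188 at 10 ppm (-2.99 ± 0.61, adjusted p = 0.000796). No 10 ppm array of either gene reached the 1 ppm range. Chst8 ran from 237 to 1725 with 2.5 ppm and from 324 to 4145 with 5 ppm, and read 4659, 1682, 4160.2 and 5027 with 10 ppm (2.87 ± 0.47, adjusted p = 2.96e-05). Spon2, an extracellular matrix protein, read 719, 279, 2488 and 373 at 1 ppm, which was below the controls on 3 of 4 arrays, and 5039, 916, 9239.6 and 5848 at 10 ppm (2.56 ± 0.54, adjusted p = 0.00103). Its fall at 1 ppm (-1.48 ± 0.49, adjusted p = 0.0336) was lost without EE2 replicate 1, 2 or 4 (0.0714, 0.188 and 0.143) or control replicate 1, 4 or 5 (0.0548, 0.0617 and 0.054). Nedd9, an adaptor of focal adhesions, Ly6d and Rgs7bp were higher at 10 than at 1 ppm by 2.27, 2.25 and 2.17. Rgs7bp was not called without 1 ppm replicate 2 (1.45, adjusted p = 0.102).

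Some genes were lower at 10 than at 1 ppm. Ces3, a carboxylesterase, read 1329, 8685, 1526 and 4559 at 1 ppm and 476, 541, 943 and 602 at 10 ppm (-2.25 ± 0.52, adjusted p = 0.00297), and Hamp2, a hepcidin gene, was lower at 10 ppm (-2.25, adjusted p = 0.0381). The Ces3 call was lost without 1 ppm replicate 2 (-1.74, adjusted p = 0.0624), and the Hamp2 call, with adjusted p from 0.0522 to 0.138, when 1 ppm replicate 1, 2 or 4 or 10 ppm replicate 1, 3 or 4 was left out. The 1 gene that differed between 1 and 2.5 ppm, Phf11d, read 414, 176, 249 and 374 at 1 ppm and 175, 191, 158 and 157 at 2.5 ppm (-0.71 ± 0.12, adjusted p = 0.00269), against 141 to 162 on the controls. The call was lost without 1 ppm replicate 1 (-0.55, adjusted p = 0.0758).

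**Figure D5:**
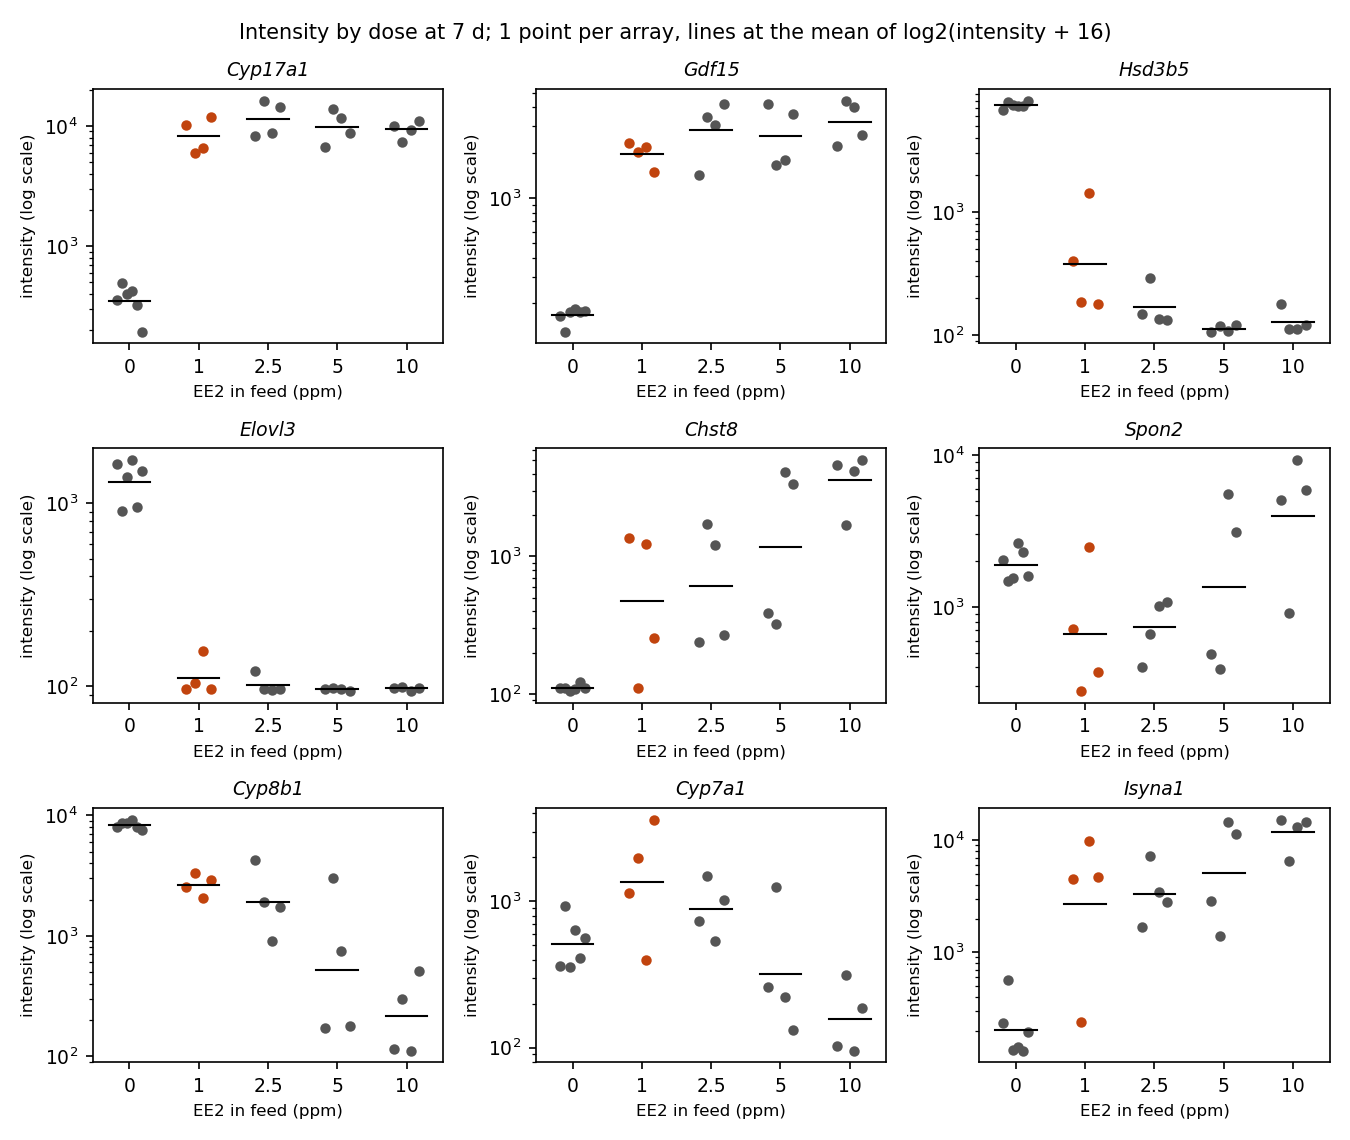
Intensity on a log scale (vertical) by dose of EE2 in the feed at 7 days (horizontal, 0 is the control) for 9 genes, with 1 point per array and the mean of log2(intensity + 16) as a line. The 1 ppm arrays are orange. The 1 and 10 ppm arrays overlap in Cyp17a1 and Gdf15, and all 10 ppm arrays lie above the 1 ppm arrays in Chst8 and below them in Cyp8b1 and Cyp7a1.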

How the data were processed

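Liver RNA of male B6C3F1 mice was labelled as biotin cRNA and read on Illumina bead arrays, per the labels' protocols. The authors deposited 1 intensity per gene and array, exported with GenomeStudio per the submitters' processing notes. No source used here gives the normalization, and array medians of 105.7 to 106.4 were nearly equal. The authors also deposited a detection p-value beside each intensity, and how it was computed is likewise not stated there. 8 control entries were left out. Symbols were updated through RefSeq's gene table (2678 of 18138, with 1152 kept as deposited).

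From these values log2(intensity + 16) was fitted with limma 3.58.1 (R 4.3.3), lmFit and eBayes, in a model of all 19 groups with 61 residual degrees of freedom. The added 16 understates fold changes of dim genes. P-values were two-sided and adjusted with Benjamini-Hochberg over 11352 genes, at a threshold of 0.05. A fold against a group in which no array detected the gene is given as at least the value against the array's lowest detected signal. The script was tested on simulated data of 11352 genes for EE2 1 ppm against control. It recovered 97 of 100 genes changed by 1 on the log2 scale and 99 of 100 changed by 2, with 2.97% false calls. The simulated noise was independent, had 1 spread per gene in all groups and set no array apart. These rates therefore need not hold for the real arrays.

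The genes named were the 15 largest rises and 15 largest falls whose groups did not overlap (predicted genes skipped), up to 4 called members of each list and members needed to describe it, the 10 largest changes with EE2 replicate 2 within the control range, and the 5 largest differences each way from 2.5 and 10 ppm. A few genes that these rules choose are not reported here. Gene lists were written from textbook knowledge. Members and lists were chosen with earlier results of these data known. 559 of 616 list entries were matched to an entry on the array by symbol or synonym. Some matches were inexact: Tox of the female-biased list was matched to Rhox8, a different gene, and Mup7 and Mup10 to Mup1. Replicates were numbered in accession order, since the labels carry no replicate numbers. Alternatives covered the pseudocount, the background correction, centring, the detection filter, the chip, array weights and the groups that share the spread. In others, arrays of a group that share a number in their sample names, control replicates 2 and 6 among them, were averaged. Each array was also left out in turn. The fit without replicate 2 of both groups was chosen after seeing the data.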

Additional observations from a re-analysis of the deposited data

Results flagged for a closer look

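A single array lay far from the rest of its group, by Dixon's 95% critical value (0.829 for 4 arrays and 0.625 for 6), in 24 of 230 groups of values examined. Chance alone gives about 1 in 20 for genes not chosen by their values. The genes examined were the named ones, and some were named because EE2 replicate 2 or 3 lay apart, so that rate is no measure here. Of the 24, 11 were control replicate 2, 7 were EE2 replicate 3, 3 were EE2 replicate 2, and 1 each were EE2 replicates 1 and 4 and control replicate 6.

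Control replicate 2 was the lowest control for Gdf15 at 129.9, Reln, a stellate cell glycoprotein, at 787.3 and Ces3 at 1395.5. It was the highest control for Usp2 at 114.1, Aox3 at 8956.8, Por at 376.2, Taldo1 at 3531.0, Ciart at 125.2, Isyna1 at 570.7, Dbp at 793.2 and Ly6d at 157.7. The Usp2 and Ciart flags lie near background, since the other controls read 106.0 to 108.2 and 99.6 to 107.1.

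EE2 replicate 3 was the highest EE2 array for Elovl3 at 155.8, Moxd1 at 387.0, Saa1 at 726.0, Saa2 at 553.2, Mup4 at 1741.0, Fam25c at 886.1 and Birc5 at 426.1. The first 6 of these genes were lower on the other EE2 arrays than on the controls, so replicate 3 was the array nearest to the controls.

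EE2 replicate 2 was the lowest EE2 array for Slco2a1 at 957.9, and the highest for Pdzk1 at 1839.4 and Ces1f at 2020.0. The latter pair lay within the control range. EE2 replicate 4 was the highest for Gpcpd1 at 2305.5, and EE2 replicate 1 the lowest for Nat8f1 at 374.7. Control replicate 6 was the lowest control for Cxcl12 at 856.6.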

How the results depend on the processing

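The calls of 1 ppm against control stayed within 1.5 times of 1515 genes under each alternative to the pseudocount, background correction, centring, detection filter, chip block, array weights and shared-number averaging. When only the 2 groups compared shared the spread, 641 genes passed (238 rose and 403 fell), and 0, 0 and 0 differed at 2.5, 5 and 10 ppm from 1 ppm. The chip as a fixed block gave 747 genes at 10 ppm. With 1 array left out, the calls ran from 899 to 1737, the rises from 403 to 874 and the falls from 496 to 863. Those against 1 ppm ran from 0 to 15 at 2.5 ppm, from 1 to 518 at 5 ppm and from 340 to 2086 at 10 ppm. The cause of these changes was not tested. Of 2743 values of named genes under alternatives, 2512 counted as the same, 180 lost the call and 50 moved. For a fit, the same means the same direction and the same side of the threshold. Differences within a chip have no p-value. They counted as the same within the SD of the EE2 arrays from the main change, and as moved beyond it. Of 899 list medians under alternatives 37 moved beyond the spread between arrays. Birc5 turned to -0.00 within the first of the chips that hold both groups, and Hamp2 at 1 ppm against control to -0.09 without replicate 2 of both groups (adjusted p = 0.964). No paired analysis was possible because the labels carry no replicate numbers. Array number and signal over background limit the precision, and values near 100 have no order.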

Other observations

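Histone genes were not among the lists, and the following were chosen after their values were seen. 6 of 9 H2B genes tested fell and none rose, with a median log2 change of -1.10, and the 6 changed by -1.19 to -0.99. H2bc11 read 973.9, 1503, 1849 and 941.6 on EE2 arrays and 2261 to 3894 (median 2865) on controls (adjusted p = 1.89e-05). All 4 EE2 arrays of these 6 genes lay below every control. In the other families 1 of 13 H2A, none of 6 H3, 3 of 10 H4 and 1 of 4 H1 genes fell and none rose, against 7.06% of all genes that fell. The median of the H2A genes was 0.23. Without EE2 replicate 2, H2A genes that included H2ac7, H2ac12 and H2ac23 rose in limma, by 1.12, 0.98 and 1.42 (adjusted p = 0.013, 0.0116 and 0.04). Without replicate 3 they changed by 0.26, 0.21 and 0.16 (adjusted p = 0.631, 0.636 and 0.862). Many members of these families were near background, where a fall cannot show, and the difference between families was not tested. Histone genes of a family are nearly identical in sequence, and their signals may not be separate.

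Other genes outside the lists passed in each of the 10 fits that left out 1 array. Dio1, the deiodinase that activates thyroid hormone, read 107, 238, 277 and 106 against 478 to 785 (median 682) (log2 change -1.87 ± 0.23, adjusted p = 1.28e-08). The organic anion transporter Slc22a7 read 130.4, 153, 147 and 142 against 341 to 587 (median 457) (log2 change -1.58 ± 0.16, adjusted p = 1.12e-11), and Gulo, the last enzyme of ascorbate synthesis, read 788, 2252, 2669 and 1196 against 3583 to 5069 (median 4172) (log2 change -1.45 ± 0.22, adjusted p = 2.59e-06). Mbl1, a mannose-binding lectin, read 860.4, 1716, 1885 and 986 against 2981 to 5623 (median 3528) (log2 change -1.51 ± 0.22, adjusted p = 8.96e-07). Among rises, Nr1i3, which encodes the receptor CAR, read 1189, 2408, 728 and 1355 against 416 to 539.6 (median 458) (log2 change 1.45 ± 0.21, adjusted p = 8.17e-07), and the iron exporter Slc40a1 read 8613, 5653, 9869 and 8719 against 2669 to 4056 (median 3140) (log2 change 1.31 ± 0.16, adjusted p = 4.70e-09). Npm1, a nucleolar protein, read 6018, 4859, 5670 and 6100 against 2517 to 3059 (median 2705) (log2 change 1.04 ± 0.18, adjusted p = 1.83e-05), and Ptgds, a prostaglandin D synthase, read 603, 118, 433 and 554 against 104 to 117 (median 109) (log2 change 1.61 ± 0.23, adjusted p = 8.96e-07). Replicate 2 of Ptgds was level with the highest control.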
